A study of Mus musculus with 24 samples.

Results

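Levels of 8 cholesterol synthesis genes were followed in the renal cortex of diabetic and non-diabetic mice: Hmgcs1, Idi1, Fdps, Fdft1, Sqle, Lss, Cyp51 and Srebf2. They were found by symbol among the 48526 genes of the read count table, which held all 8, and all 8 were among the 15808 genes that passed a filter on low counts and were tested. The study sequenced 24 libraries from C57BL/6 mice to ask how diabetes and a blocker of the C5a receptor change gene expression in the kidney. There were 4 groups of 6 libraries: diabetic mice on PMX-53, diabetic mice on vehicle, non-diabetic mice on PMX-53 and non-diabetic mice on vehicle. Diabetes was induced with 55 mg/kg streptozotocin, a toxin of the insulin-producing beta cells, injected into the peritoneum on 5 days in mice aged 6 weeks, and non-diabetic mice received sodium citrate. PMX-53, a peptide that blocks C5aR1, was given in the drinking water at 2 mg/kg body weight, vehicle mice drank water without it, and mice were followed for 24 weeks. All groups carry the same strain name without a substrain, and no genetic alteration is named. The labels do not state whether each library is 1 mouse, so the p-values measure the spread between libraries, which may be partly technical.

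Cells build cholesterol from acetyl-CoA in a long chain of reactions. The first arm makes mevalonate and turns it into the isoprenoid building blocks. Hmgcs1 encodes the cytosolic synthase that makes HMG-CoA, Idi1 the isomerase that interconverts the isopentenyl and dimethylallyl diphosphates, and Fdps the synthase that joins them to farnesyl diphosphate. The sterol arm starts from there. Fdft1 encodes squalene synthase, Sqle squalene epoxidase, Lss lanosterol synthase, which closes the ring system, and Cyp51 the lanosterol demethylase. Srebf2 encodes SREBP2, the membrane-bound transcription factor that is cleaved when sterols in the endoplasmic reticulum are low and then switches on most genes of the pathway, together with the factors NF-Y and Sp1. The proximal tubule, which makes up most of the cortex, also takes up lipoprotein components from the filtrate.

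The promoters show which of these known binding motifs lie near the start of each gene. RefSeq windows on the GRCm38.p6 assembly, 250 bases before to 50 after the start, were matched for 5 of the 8 genes, namely Hmgcs1, Idi1, Lss, Cyp51 and Srebf2. No window was matched for Fdft1, Sqle and Fdps in the promoter set used here, so the motif counts leave them out. The 250 bases before the start are printed for Hmgcs1 (window chr13:119690101-119690400, plus strand), Idi1 (window chr13:8885356-8885655, plus strand) and Cyp51 (window chr5:4104648-4104947, minus strand), because these 3 genes behaved differently in the comparisons that follow. Capitals mark the sterol regulatory element TCACNCCAC and the NF-Y box CCAAT, which reads ATTGG where it lies on the other strand.
Hmgcs1: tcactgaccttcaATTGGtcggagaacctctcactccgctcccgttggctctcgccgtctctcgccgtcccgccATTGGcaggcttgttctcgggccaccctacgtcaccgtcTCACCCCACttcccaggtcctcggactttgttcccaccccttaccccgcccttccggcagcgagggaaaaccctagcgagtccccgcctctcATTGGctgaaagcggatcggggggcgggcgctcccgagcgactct
Idi1: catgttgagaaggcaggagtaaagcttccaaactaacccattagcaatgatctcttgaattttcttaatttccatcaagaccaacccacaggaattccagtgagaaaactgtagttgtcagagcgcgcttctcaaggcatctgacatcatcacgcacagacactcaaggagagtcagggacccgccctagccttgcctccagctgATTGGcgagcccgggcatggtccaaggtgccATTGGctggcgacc
Cyp51: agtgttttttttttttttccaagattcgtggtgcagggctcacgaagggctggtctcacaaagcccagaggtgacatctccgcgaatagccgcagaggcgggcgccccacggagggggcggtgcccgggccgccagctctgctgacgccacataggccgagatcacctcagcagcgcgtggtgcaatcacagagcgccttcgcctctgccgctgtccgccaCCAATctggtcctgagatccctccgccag

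Among these 5 windows the sterol regulatory element, searched on both strands, occurred in Hmgcs1, where TCACCCCAC starts at position -137 from the RefSeq start. It occurred in 408 of 32851 RefSeq mouse promoters of the same length, or 1.24%. The NF-Y box was present in 5 of 5 windows, against 37.4% of all promoters. The Sp1 motif GGGCGG, whose matches overlapped none of the others in the 5 windows, was present in 5 of 5, against 35.7%. Of 15 further enzymes of the pathway 14 had a window, and 0 of 14 held the exact sterol element. A match is a stretch of letters, and the windows without one say nothing of binding.

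Each library held 10964992 to 22000895 counts, and levels are given as CPM, read counts scaled to library size by the TMM factors of edgeR. Mitochondrially encoded genes took 22.2 to 29.0% of counts in diabetic PMX-53 libraries, 25.9 to 31.9% in diabetic vehicle libraries, 20.2 to 24.6% in non-diabetic PMX-53 libraries and 20.1 to 24.6% in non-diabetic vehicle libraries. With these and the ribosomal RNA genes removed before scaling, 0 of the 40 calls on the 8 genes changed. The diabetic vehicle libraries stood apart at Nnt, the gene of a mitochondrial transhydrogenase, with 242 to 272 CPM, where the remaining 18 libraries held 101 to 121 CPM. A trait of that group other than diabetes cannot be told apart from diabetes or from PMX-53 in the comparisons that use it. Summed markers of the proximal tubule (8 genes, all tested) were 11450 to 15480 CPM in diabetic PMX-53, 10200 to 12510 in diabetic vehicle, 14160 to 16910 in non-diabetic PMX-53 and 13520 to 15740 CPM in non-diabetic vehicle libraries. The diabetic vehicle range lay below both non-diabetic ranges, yet with diabetes on vehicle 3 of the 8 were higher and 3 lower. With PMX-53 in diabetes 3 of the 8 were higher and 1 lower. The 2 most abundant, Lrp2 and Slc34a1, averaged 4499 and 3093 CPM in diabetic vehicle and 6423 and 4810 CPM in non-diabetic vehicle libraries, while Gatm averaged 677 CPM in diabetic vehicle and 414 CPM in non-diabetic vehicle libraries. Of 6 collecting duct markers 5 were higher with diabetes on vehicle, their sum being 206 to 314 CPM in diabetic vehicle and 98.7 to 151 CPM in non-diabetic vehicle libraries. Of 5 podocyte markers 4 were higher with PMX-53 in diabetes, their sum being 248 to 362 CPM in diabetic PMX-53 and 189 to 222 CPM in diabetic vehicle libraries. In the same comparison 4 of 4 fibroblast and pericyte markers (sum 123 to 183 CPM in diabetic PMX-53, 78.6 to 111 CPM in diabetic vehicle) and 3 of 5 endothelial markers (194 to 238 CPM in diabetic PMX-53, 151 to 187 CPM in diabetic vehicle) were higher. Of 6 medulla and papilla markers 3 were tested and 2 were lower (167 to 306 CPM in diabetic PMX-53, 304 to 576 CPM in diabetic vehicle). Slc5a3, the most abundant, averaged 199 CPM in diabetic PMX-53 and 367 CPM in diabetic vehicle libraries. Slc14a2, Upk1b and Upk3a averaged 1.81, 0.699 and 0.605 CPM in diabetic vehicle libraries, on 264, 125 and 89 reads over all 24. In non-diabetic vehicle libraries they averaged 0.0439, 0.0667 and 0.01085 CPM. Akr1b3 averaged 17.95 CPM in diabetic vehicle and 19.3 CPM in non-diabetic vehicle libraries. With diabetes on vehicle 3 of the 4 fibroblast and pericyte markers and 2 of the 5 endothelial markers were lower. Of 4 distal convoluted tubule markers 3 were higher with diabetes on vehicle, and of 5 liver markers tested 1 was higher and 3 lower with PMX-53 in diabetes. Among 4 thick ascending limb markers 2 were higher and 1 lower with diabetes on vehicle, and 1 was lower with PMX-53 in diabetes. With diabetes on PMX-53, 2 of 4 distal convoluted tubule and 2 of 5 podocyte markers were higher. So were 1 of 6 collecting duct and 1 of 4 fibroblast and pericyte markers. There 1 of 8 proximal tubule and 1 of 5 endothelial markers were lower. Over all genes tested, 20.4% were called higher and 19.9% lower with diabetes on vehicle. With PMX-53 in diabetes these shares were 13.9% higher and 13.5% lower, and with diabetes on PMX-53 5.52% higher and 4.52% lower. The part of these cell types in the results was not tested. In whole tissue, fewer cells of a type and less RNA per cell cannot be told apart. For adrenal cortex, a tissue rich in this pathway, the sum of 10 markers stayed between 2.23 and 6.19 CPM in every library, highest in diabetic vehicle libraries at 3.29 to 6.19 CPM, and Cyp11a1 had 5 reads and Cyp11b1 3 reads over all 24. Cyp17a1 averaged 0.607 CPM in diabetic vehicle and 0.132 CPM in non-diabetic vehicle libraries, and Hsd3b1 0.397 CPM in diabetic vehicle and 0.0241 CPM in non-diabetic vehicle libraries, on 96 and 57 reads over all 24. Of 8 adipocyte markers, summing to 16.5 to 22.2 CPM in diabetic PMX-53, 27.6 to 40.6 in diabetic vehicle, 16.0 to 27.2 in non-diabetic PMX-53 and 18.5 to 29.1 CPM in non-diabetic vehicle libraries, Lep had 0 reads and Adipoq 4. Of the 2 tested, 1 was higher with diabetes on vehicle and 2 were lower with PMX-53 in diabetes. Plin4 averaged 6.955 CPM in diabetic vehicle, 3.44 in non-diabetic vehicle and 1.645 CPM in diabetic PMX-53 libraries. For Fabp4 these means were 23.5, 20.5 and 17.0 CPM.

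Per length of exon, Hmgcs1 was far above the other 7 genes. Over all 24 libraries it averaged 88.7 CPM per kilobase, followed by Cyp51 at 21.2, Srebf2 at 10.96, Sqle at 9.58, Fdft1 at 3.69, Idi1 at 2.91, Lss at 2.01 and Fdps at 0.221. The length is that of all annotated exons of a gene together, 10.79 kilobases for Lss and 5.546 for Sqle. Their longest coding transcripts have 4667 and 2758 bases, so the order below Hmgcs1 depends on the length used. In non-diabetic vehicle libraries the per-kilobase ranges of Hmgcs1 (90.1 to 108) and Cyp51 (9.26 to 31.8) did not meet. The ranges of Cyp51, Srebf2 (9.69 to 11.6) and Sqle (7.73 to 9.96) overlapped, as did those of Idi1 (2.24 to 5.25) and Fdft1 (2.70 to 3.37), so their order there was within the spread. In diabetic vehicle libraries Sqle averaged 13.2 and Srebf2 10.41 CPM per kilobase, and Lss 2.40 and Idi1 1.84, so the order over all libraries did not hold there. In non-diabetic vehicle libraries Fdps was at 0.0699 to 0.173 CPM per kilobase, below every other gene of the 8.

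How far reads could be assigned to a gene differed between the 8. Fdps (ENSMUSG00000059743, chromosome 3, 89093588 to 89101959, minus strand) had 4 to 36 reads per library. In the GENCODE M21 annotation 85.9% of its coding bases also belong to Gm43738 on the same strand, which was listed at 0, and 86.4% of its transcript's 50-base words occur in 8 other genes. How shared reads were counted is not stated, so the level of Fdps is uncertain. Fdft1 (ENSMUSG00000021273, chromosome 14, 63145150 to 63179578, minus strand) shares 774 exon bases, none of them coding, with the abundant opposite-strand cathepsin gene Ctsb. Of its transcript's words 30.7% occur in 2 other genes, with 19.9% in Ctsb. Whether the count used strand is not stated, so reads of Ctsb may be among the 155 to 541 per library. Idi1 (ENSMUSG00000058258, chromosome 13, 8885501 to 8892451, plus strand) shares 30.5% of its words with 5 genes, and Hmgcs1 (ENSMUSG00000093930, chromosome 13, 119690379 to 119708260, plus strand) 13.6% with an antisense gene. For Lss (ENSMUSG00000033105, chromosome 10, 76531588 to 76557138, plus strand) the share was 4.35% and for Cyp51 (ENSMUSG00000001467, chromosome 5, 4081145 to 4104746, minus strand) 3.17%. Sqle (ENSMUSG00000022351, chromosome 15, 59315077 to 59331192, plus strand) and Srebf2 (ENSMUSG00000022463, chromosome 15, 82147181 to 82205379, plus strand) shared 0%. Of coding bases, 35.1% of Hmgcs1 and 8.46% of Lss also belong to an antisense gene, so their counts too may depend on strand use.

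The first arm did not move as a block. Hmgcs1 had 309.8, 370.3 and 400.5 CPM as the lowest, median and highest value in diabetic PMX-53 libraries, and 339, 406 and 427 CPM in diabetic vehicle libraries. In non-diabetic libraries Hmgcs1 had 342, 409.7 and 469 CPM on PMX-53 and 414, 475 and 497 CPM on vehicle. The non-diabetic vehicle libraries were the highest, and 5 of 6 diabetic vehicle libraries lay below all of them. Idi1 had 7.43, 10.7 and 13.7 CPM in diabetic PMX-53 libraries and 4.04, 6.12 and 10.7 CPM in diabetic vehicle libraries. In non-diabetic libraries Idi1 had 10.01, 11.2 and 14.7 CPM on PMX-53 and 7.86, 10.7 and 18.4 CPM on vehicle. The diabetic vehicle group was the low one, except for its replicate 4, which held the 10.7 CPM against 4.04 to 6.53 CPM in the 5 others. Fdps had 0.825, 0.963 and 1.41 CPM in diabetic PMX-53 libraries and 0.702, 1.62 and 1.89 CPM in diabetic vehicle libraries. In non-diabetic libraries Fdps had 0.302, 0.695 and 0.904 CPM on PMX-53 and 0.294, 0.566 and 0.726 CPM on vehicle. Here 5 of 6 diabetic vehicle libraries were above every other library of the 24, and replicate 4 of that group was the exception.

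Mean levels of Fdft1, Sqle, Lss and Cyp51, of the sterol arm, were highest in diabetic mice on vehicle. Fdft1 had 12.9, 16.0 and 17.9 CPM in diabetic PMX-53 libraries and 20.5, 21.3 and 28.9 CPM in diabetic vehicle libraries. In non-diabetic libraries it had 10.4, 11.3 and 12.3 CPM on PMX-53 and 11.4, 12.3 and 14.2 CPM on vehicle. The diabetic vehicle libraries did not overlap with any other group. Sqle had 41.2, 51.0 and 67.5 CPM in diabetic PMX-53 libraries and 61.8, 74.3 and 81.2 CPM in diabetic vehicle libraries. In non-diabetic libraries Sqle had 34.2, 36.3 and 43.4 CPM on PMX-53 and 42.9, 46.2 and 55.2 CPM on vehicle. All diabetic vehicle libraries were above all non-diabetic ones, and 2 diabetic PMX-53 libraries reached into their range. Lss had 18.2, 21.4 and 24.9 CPM in diabetic PMX-53 libraries and 22.6, 24.8 and 31.2 CPM in diabetic vehicle libraries. In non-diabetic libraries Lss had 17.5, 19.4 and 22.2 CPM on PMX-53 and 17.7, 19.3 and 22.1 CPM on vehicle. Again the diabetic vehicle libraries lay above all non-diabetic ones, by a narrow margin. Cyp51 had 54.1, 68.9 and 75.0 CPM in diabetic PMX-53 libraries and 90.8, 133.6 and 179 CPM in diabetic vehicle libraries. In non-diabetic libraries Cyp51 had 77.9, 82.8 and 98.4 CPM on PMX-53 and 40.9, 91.0 and 140.3 CPM on vehicle. Its vehicle groups were the widest, and all 6 diabetic PMX-53 libraries lay below all diabetic vehicle and all non-diabetic PMX-53 libraries.

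The regulator kept a narrow range. Srebf2 had 71.8, 83.0 and 94.4 CPM in diabetic PMX-53 libraries and 62.2, 74.1 and 89.9 CPM in diabetic vehicle libraries. In non-diabetic libraries Srebf2 had 71.8, 79.3 and 89.0 CPM on PMX-53 and 69.6, 77.9 and 83.3 CPM on vehicle. The groups overlapped in every pair.

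**Figure D1:**
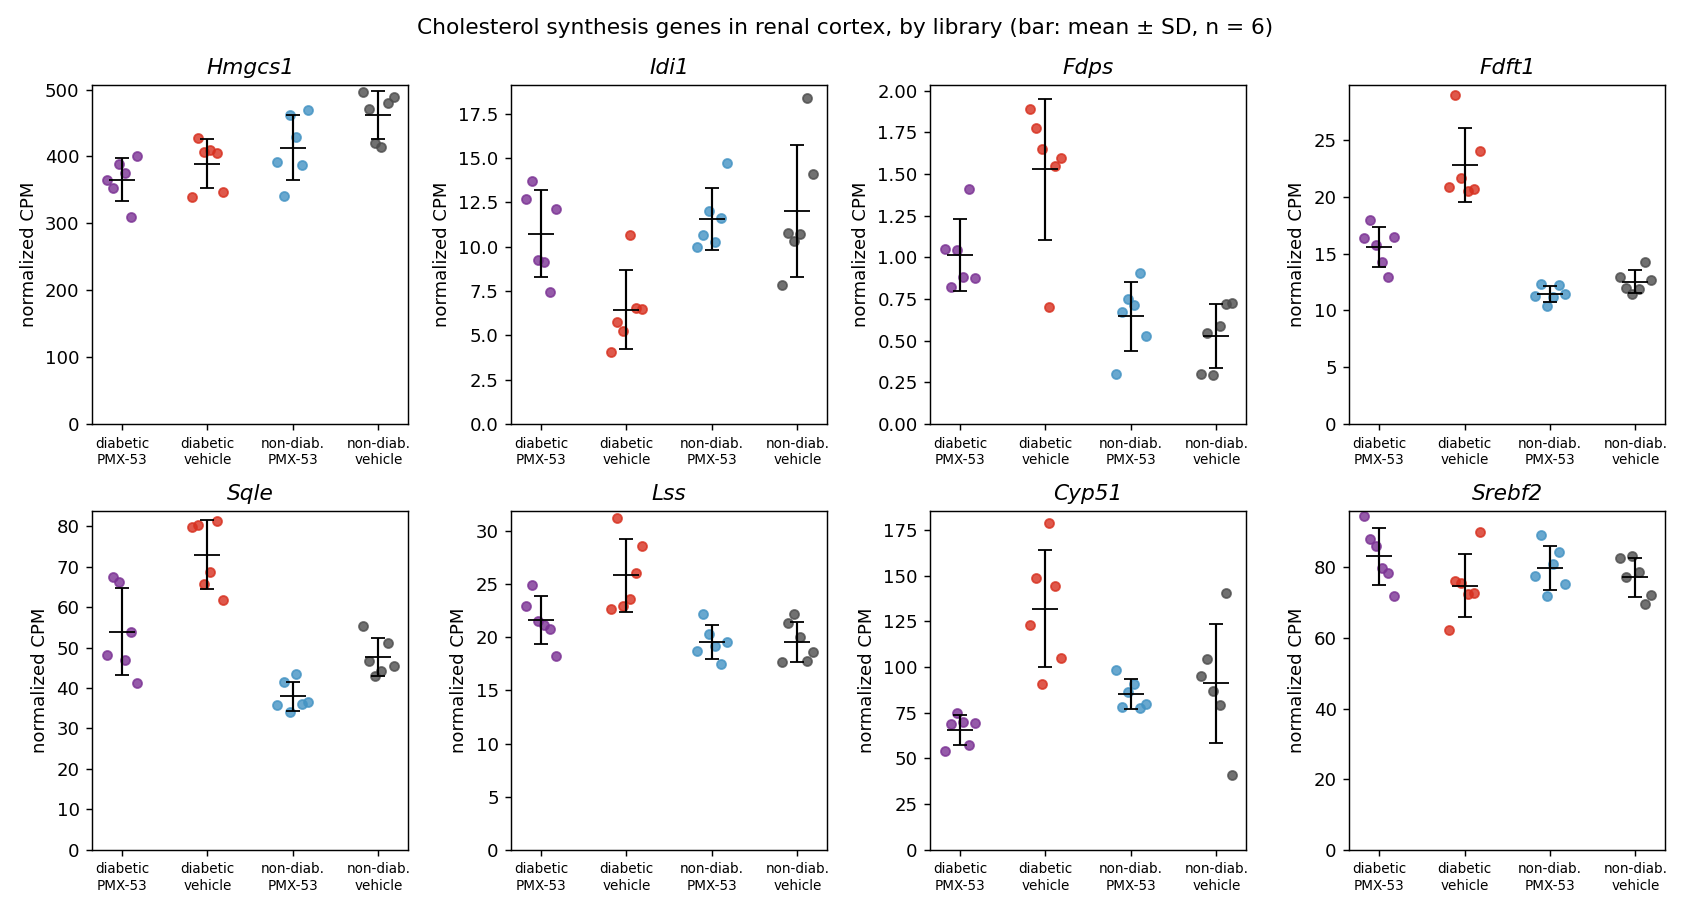
Normalized CPM (vertical axis, from 0, a different scale in each panel) of the 8 genes in every library of the 4 groups; points are libraries and bars the mean ± SD (n = 6). Fdft1 shows diabetic vehicle libraries at 20.5 to 28.9 CPM, clear of the other groups, whereas Srebf2 overlaps between all groups.

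Diabetic mice on vehicle had more RNA of the 4 sterol-arm enzymes among the 8 genes, while the 3 first-arm genes differed in direction. Fdft1, Sqle, Lss and Cyp51 were 1.82-fold, 1.53-fold, 1.32-fold and 1.45-fold higher in diabetic vehicle than in non-diabetic vehicle mice. Fdps was higher as well, while Idi1 was 1.85-fold lower and Hmgcs1 slightly lower. Srebf2 did not pass the test. In all, 5 of the 8 genes were higher and 2 lower, where 20.4% of the 15808 genes tested were called higher and 19.9% lower. The median log2 fold change of the 8 was 0.47, and that of all genes tested was -0.0014. Calls are adjusted p under 0.05 by edgeR's quasi-likelihood test with Benjamini-Hochberg adjustment over all genes tested.

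Of the sterol arm, Fdft1 averaged 22.8 ± 3.27 CPM in diabetic vehicle and 12.5 ± 1.00 CPM in non-diabetic vehicle libraries (SD, n = 6 each), a log2 fold change of 0.87 ± 0.08 (SE, edgeR adjusted p = 1.5e-08). The overlapping gene Ctsb was at 0.30 ± 0.06 (adjusted p = 0.000282), a smaller difference in the same direction. Sqle averaged 73.0 ± 8.53 CPM in diabetic vehicle and 47.6 ± 4.68 CPM in non-diabetic vehicle libraries, a difference of 0.62 ± 0.10 (edgeR adjusted p = 4.32e-05). Lss averaged 25.8 ± 3.46 CPM in diabetic vehicle and 19.6 ± 1.88 CPM in non-diabetic vehicle libraries (0.40 ± 0.08, adjusted p = 0.000349). For these 3 genes the groups did not overlap. How many of all genes tested show this is not given here. A lack of overlap, here and below, therefore describes the libraries and sets no gene apart from the rest. Cyp51 averaged 131.8 ± 32.02 CPM in diabetic vehicle and 91.2 ± 32.5 CPM in non-diabetic vehicle libraries, and its log2 fold change of 0.53 ± 0.20 passed narrowly (adjusted p = 0.0361), with 5 of 6 diabetic libraries above the non-diabetic mean. The Cyp51 call was lost without any of diabetic vehicle replicates 2, 4 or 5 or non-diabetic vehicle replicates 1, 3, 4 or 6, at 0.38 to 0.54 and edgeR adjusted p of 0.0508 to 0.0926. It was also lost with library totals alone as scaling (adjusted p = 0.0974), without the filter (adjusted p = 0.0668) and with only these 2 groups in the fit (adjusted p = 0.134).

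Of the first arm, Idi1 averaged 6.46 ± 2.25 CPM in diabetic vehicle and 12.0 ± 3.71 CPM in non-diabetic vehicle libraries (log2 fold change -0.89 ± 0.21, edgeR adjusted p = 0.00145), below the non-diabetic mean in 6 of 6. Hmgcs1 averaged 389 ± 36.6 CPM in diabetic vehicle and 462 ± 35.7 CPM in non-diabetic vehicle libraries (-0.25 ± 0.08, adjusted p = 0.0136), also in 6 of 6, and missed the threshold with limma voom (adjusted p = 0.0598). Fdps averaged 1.53 ± 0.424 CPM in diabetic vehicle and 0.529 ± 0.193 CPM in non-diabetic vehicle libraries (1.53 ± 0.26, adjusted p = 3.12e-05), on 4 to 36 reads per library. Srebf2 averaged 74.8 ± 8.93 CPM in diabetic vehicle and 77.2 ± 5.52 CPM in non-diabetic vehicle libraries (-0.05 ± 0.07, adjusted p = 0.655). RNA levels do not measure the cleavage of SREBP2.

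PMX-53 in diabetic mice went with lower levels of the same 4 sterol-arm enzymes and a higher level of Idi1. Cyp51 was 2.01-fold lower and Fdft1 1.47-fold lower in diabetic PMX-53 than in diabetic vehicle mice, without overlap between groups. Sqle was 1.35-fold and Lss 1.199-fold lower, and Idi1 was 1.65-fold higher. Of the 8 genes 1 was higher and 4 lower, where 13.9% of all genes tested were called higher and 13.5% lower. The median log2 fold change was -0.35, against 0.0033 over all genes tested. This comparison and the one of the vehicle groups share the diabetic vehicle libraries, so opposite signs in the 2 are not separate observations. With library totals alone as scaling, 79.5% of the genes called here were higher, against 50.7% with TMM, and in the comparison of the vehicle groups 31.2%, against 50.7%.

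Cyp51 averaged 65.7 ± 8.18 CPM in diabetic PMX-53 and 131.8 ± 32.02 CPM in diabetic vehicle libraries (SD, n = 6 each), a log2 fold change of -1.004 ± 0.20 (edgeR adjusted p = 0.000828). Over all alternatives it stayed between -1.10 and -0.89 and was called in 20 of 20. Fdft1 averaged 15.6 ± 1.77 CPM in diabetic PMX-53 and 22.8 ± 3.27 CPM in diabetic vehicle libraries (-0.55 ± 0.08, adjusted p = 2.42e-05), while Ctsb was at -0.16 ± 0.06 (adjusted p = 0.047). Sqle averaged 54.0 ± 10.7 CPM in diabetic PMX-53 and 73.0 ± 8.53 CPM in diabetic vehicle libraries (-0.43 ± 0.10, adjusted p = 0.0027), below the diabetic vehicle mean in 6 of 6. Idi1 averaged 10.7 ± 2.46 CPM in diabetic PMX-53 and 6.46 ± 2.25 CPM in diabetic vehicle libraries (0.72 ± 0.21, adjusted p = 0.0124), and 6 of 6 PMX-53 libraries lay above the vehicle mean. Lss was at -0.26 ± 0.08 (edgeR adjusted p = 0.0186), a call lost without diabetic PMX-53 replicate 6 (-0.22, adjusted p = 0.0509) or diabetic vehicle replicate 2 (-0.21, adjusted p = 0.0579) and with library totals alone as scaling (-0.14, adjusted p = 0.261).

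Hmgcs1, Fdps and Srebf2 did not pass with PMX-53 in diabetes. Hmgcs1 averaged 365.5 ± 32.1 CPM in diabetic PMX-53 and 389 ± 36.6 CPM in diabetic vehicle libraries (-0.09 ± 0.08, edgeR adjusted p = 0.42). Fdps averaged 1.02 ± 0.216 CPM in diabetic PMX-53 and 1.53 ± 0.424 CPM in diabetic vehicle libraries (-0.58 ± 0.23, adjusted p = 0.0596). It was called without diabetic vehicle replicate 4 (-0.72, adjusted p = 0.0099) and without diabetic PMX-53 replicate 5 (-0.70, adjusted p = 0.0373). Srebf2 averaged 83.1 ± 8.03 CPM in diabetic PMX-53 and 74.8 ± 8.93 CPM in diabetic vehicle libraries (0.15 ± 0.07, adjusted p = 0.129). It was called without diabetic vehicle replicate 6 (0.21, adjusted p = 0.0274) and with library totals alone (0.26, adjusted p = 0.0142).

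**Figure D2:**
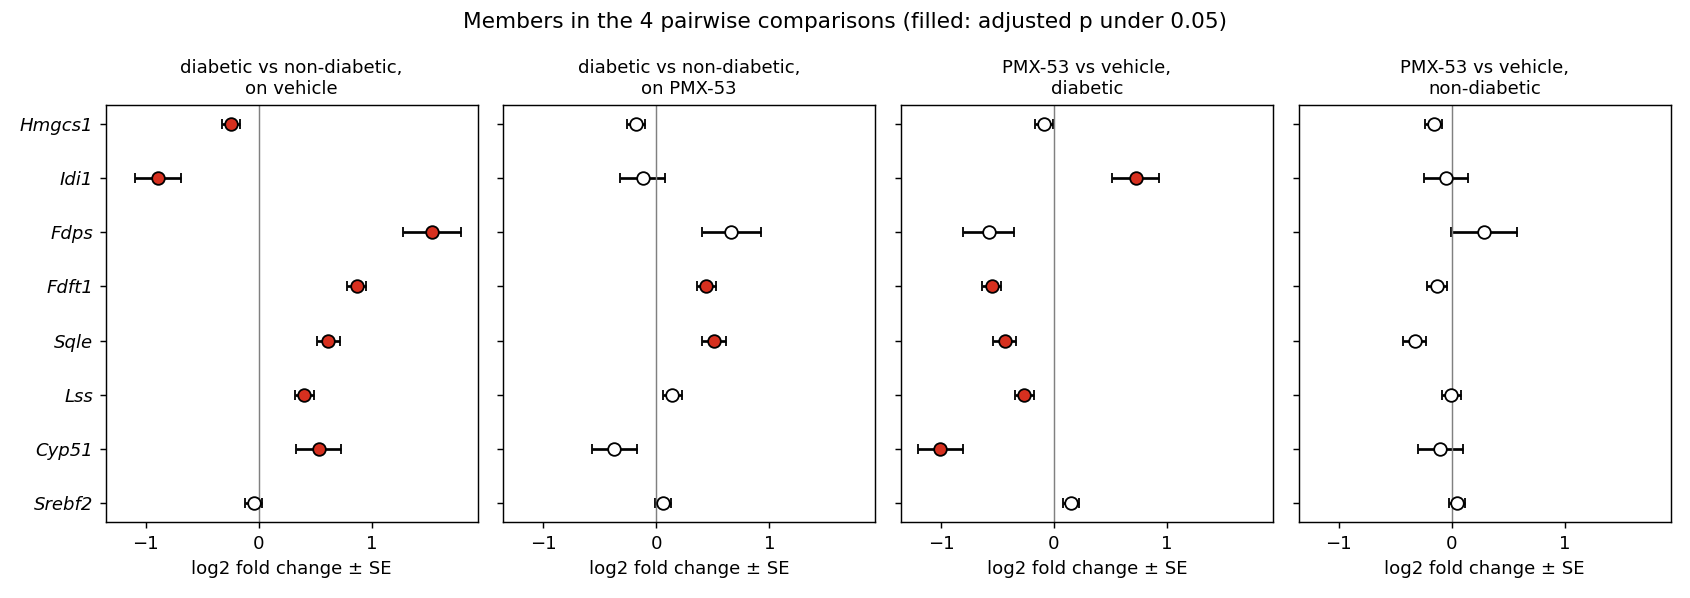
Log2 fold change ± SE (horizontal axis) of the 8 genes in the 4 pairwise comparisons by edgeR's quasi-likelihood test; filled points have an adjusted p under 0.05. The leftmost panel, the vehicle groups, has 7 filled points, 5 of them right of 0, and the rightmost panel, PMX-53 in non-diabetic mice, has 0.

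PMX-53 in non-diabetic mice changed 0 of the 8 genes past the threshold. Lss averaged 19.6 ± 1.57 CPM on PMX-53 and 19.6 ± 1.88 CPM on vehicle (SD, n = 6 each), and Srebf2 79.8 ± 6.24 CPM on PMX-53 and 77.2 ± 5.52 CPM on vehicle. Hmgcs1 averaged 413 ± 49.0 CPM on PMX-53 and 462 ± 35.7 CPM on vehicle, a log2 fold change of -0.16 ± 0.08 (edgeR adjusted p = 0.693). Fdft1 was at -0.13 ± 0.09, Fdps at 0.29 ± 0.29, Idi1 at -0.05 ± 0.20 and Cyp51 at -0.10 ± 0.20 (edgeR adjusted p = 0.815, 0.902, 0.985 and 0.962). Sqle came nearest to a difference, at 37.9 ± 3.68 CPM in non-diabetic PMX-53 and 47.6 ± 4.68 CPM in non-diabetic vehicle libraries. Its log2 fold change was -0.33 ± 0.10 with an unadjusted p of 0.00445 and an edgeR adjusted p of 0.454, and 6 of 6 PMX-53 libraries lay below the vehicle mean. Over all genes tested, 0% were called higher and 0% lower. At an unadjusted p under 0.05 there were 1142 of 15808 genes, among them 1 of the 8, whereas DESeq2 and limma voom with sample quality weights called 0 genes. Fold changes of the 8 ran from -0.33 to 0.29 with a median of -0.07, against 0.0003 over all genes tested.

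Among mice on PMX-53, diabetes still went with more Sqle and Fdft1. Sqle averaged 54.0 ± 10.7 CPM in diabetic PMX-53 and 37.9 ± 3.68 CPM in non-diabetic PMX-53 libraries (0.51 ± 0.10, edgeR adjusted p = 0.0027), 1.42-fold higher, with 5 of 6 diabetic libraries above all non-diabetic ones. Fdft1 averaged 15.6 ± 1.77 CPM in diabetic PMX-53 and 11.5 ± 0.712 CPM in non-diabetic PMX-53 libraries (0.44 ± 0.09, adjusted p = 0.00147), without overlap. The groups compared here do not include the diabetic vehicle libraries, although these entered the shared estimate of the spread in the fit. Sqle and Fdft1 were the only ones of the 8 called in this comparison, and both calls held in 20 of 20 alternatives. So 2 of 8 were higher and 0 lower, against 5.52% and 4.52% of all genes tested (65.7% of called genes higher with library totals alone, 54.9% with TMM). The median log2 fold change of the 8 was 0.10, and that of all genes tested was -0.00345. Cyp51 averaged 65.7 ± 8.18 CPM in diabetic PMX-53 and 85.1 ± 8.23 CPM in non-diabetic PMX-53 libraries. Its groups did not overlap, but its log2 fold change of -0.37 ± 0.20 did not pass in the fit of all 4 groups (edgeR adjusted p = 0.26). With only the PMX-53 groups in the fit it passed at -0.37 (adjusted p = 0.00819). Idi1 averaged 10.7 ± 2.46 CPM in diabetic PMX-53 and 11.6 ± 1.73 CPM in non-diabetic PMX-53 libraries (-0.12 ± 0.20, adjusted p = 0.768). Fdps was at 0.66 ± 0.26 (adjusted p = 0.106; 0.68 and 0.0482 with limma voom), Hmgcs1 at -0.18 ± 0.08 (0.159), Lss at 0.14 ± 0.08 (0.307) and Srebf2 at 0.06 ± 0.07 (0.675), none past the threshold in edgeR.

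The interaction sets the response to PMX-53 in diabetic mice against that in non-diabetic mice. It passed for Fdft1 at -0.42 ± 0.12 (log2, edgeR adjusted p = 0.0276) and for Cyp51 at -0.90 ± 0.28 (adjusted p = 0.0457), so 0 of 8 genes were positive and 2 negative, against 4.66% and 4.76% of all genes tested (79.3% of called genes positive with library totals alone, 49.5% with TMM). For Fdft1 the call was lost without diabetic PMX-53 replicate 5 (-0.37, adjusted p = 0.0512), without non-diabetic vehicle replicate 3 (-0.40, adjusted p = 0.0505) and with library totals alone (-0.30, adjusted p = 0.182). The Cyp51 call held in 5 of 24 fits that each leave out 1 library, namely without diabetic vehicle replicate 3 or 6 or non-diabetic vehicle replicate 2, 5 or 6. In the 19 others its adjusted p was 0.0507 to 0.0787, and its value over all 24 was -1.07 to -0.75. It was also lost with library totals alone (adjusted p = 0.0924) and without the filter (adjusted p = 0.0883). Idi1 was at 0.77 ± 0.29 (edgeR adjusted p = 0.0937) and Fdps at -0.87 ± 0.37 (adjusted p = 0.143). Without diabetic vehicle replicate 4 both passed, Idi1 at 0.96 (adjusted p = 0.0144) and Fdps at -1.01 (adjusted p = 0.0421). Lss at -0.26 ± 0.12 (0.171), Sqle at -0.11 ± 0.15 (0.714), Hmgcs1 at 0.07 ± 0.11 (0.759) and Srebf2 at 0.10 ± 0.10 (0.589) did not pass. The median of the 8 was -0.18, and that of all genes tested was 0.00615.

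The further enzymes of the pathway, and the lists around it, are read against the share of all genes called, 20.4% higher and 19.9% lower with diabetes on vehicle and 13.9% higher and 13.5% lower with PMX-53 in diabetic mice. With diabetes on PMX-53 these shares were 5.52% higher and 4.52% lower. Of the first arm 4 of 5 further genes were tested (Idi2 was not), and with diabetes on vehicle 3 were higher and 0 lower, with a median log2 fold change of 0.38. Pmvk, the phosphomevalonate kinase gene, was at 5.46 to 7.46 CPM in diabetic vehicle and 3.97 to 4.68 CPM in non-diabetic vehicle libraries (0.61 ± 0.10, edgeR adjusted p = 1.66e-05), without overlap. Mvk, the gene of the preceding kinase, was at 0.45 ± 0.11 (adjusted p = 0.00244) and Acat2, the cytosolic thiolase gene, at 0.30 ± 0.08 (adjusted p = 0.00252). Hmgcs1 and Idi1 were thus lower where Mvk, Pmvk and the first sterol-arm enzymes were higher. Set against vehicle, in diabetic mice on PMX-53 0 of these 4 were higher and 2 lower (median -0.29), Pmvk at -0.61 ± 0.10 (adjusted p = 4.78e-05) and Acat2 at -0.30 (adjusted p = 0.00489), a call lost with library totals alone (-0.18, adjusted p = 0.0912).

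Of the sterol arm 10 further genes were tested, and with diabetes on vehicle 3 were higher and 2 lower (median 0.09), near the shares over all genes. Nsdhl, a sterol dehydrogenase gene, was at 0.52 ± 0.09 (edgeR adjusted p = 7.28e-05), and Ebp, the gene of the sterol isomerase, at 0.35 ± 0.08 (adjusted p = 0.00118). Lbr, whose product is both a sterol reductase and a lamin receptor, was lower at -0.67 ± 0.08 (adjusted p = 4.68e-07), and Sc5d, the sterol desaturase gene, at -0.38 ± 0.09 (adjusted p = 0.0017). In diabetic mice on PMX-53, against vehicle, 1 was higher and 3 lower (median -0.02), but 4 were higher and 1 lower with library totals alone. Without diabetic vehicle replicate 4, or with limma voom, 3 were higher, and without diabetic PMX-53 replicate 6, 2 were. Ebp was at 20.9 to 31.0 CPM in diabetic PMX-53 and 40.5 to 51.9 CPM in diabetic vehicle libraries (-0.77 ± 0.08, adjusted p = 4.03e-07), without overlap. Lbr was at 38.6 to 46.7 CPM in diabetic PMX-53 and 23.3 to 36.1 CPM in diabetic vehicle libraries (0.58 ± 0.08, adjusted p = 1.42e-05), also without overlap. Nsdhl was at -0.34 (edgeR adjusted p = 0.00726) and Hsd17b7 at -0.29 (adjusted p = 0.0136), and both calls were lost with library totals alone (adjusted p = 0.122 and 0.241). Among mice on PMX-53, Ebp was 1 of 10 lower with diabetes at -0.35 (adjusted p = 0.00731) and 0 of 10 were higher.

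**Figure D3:**
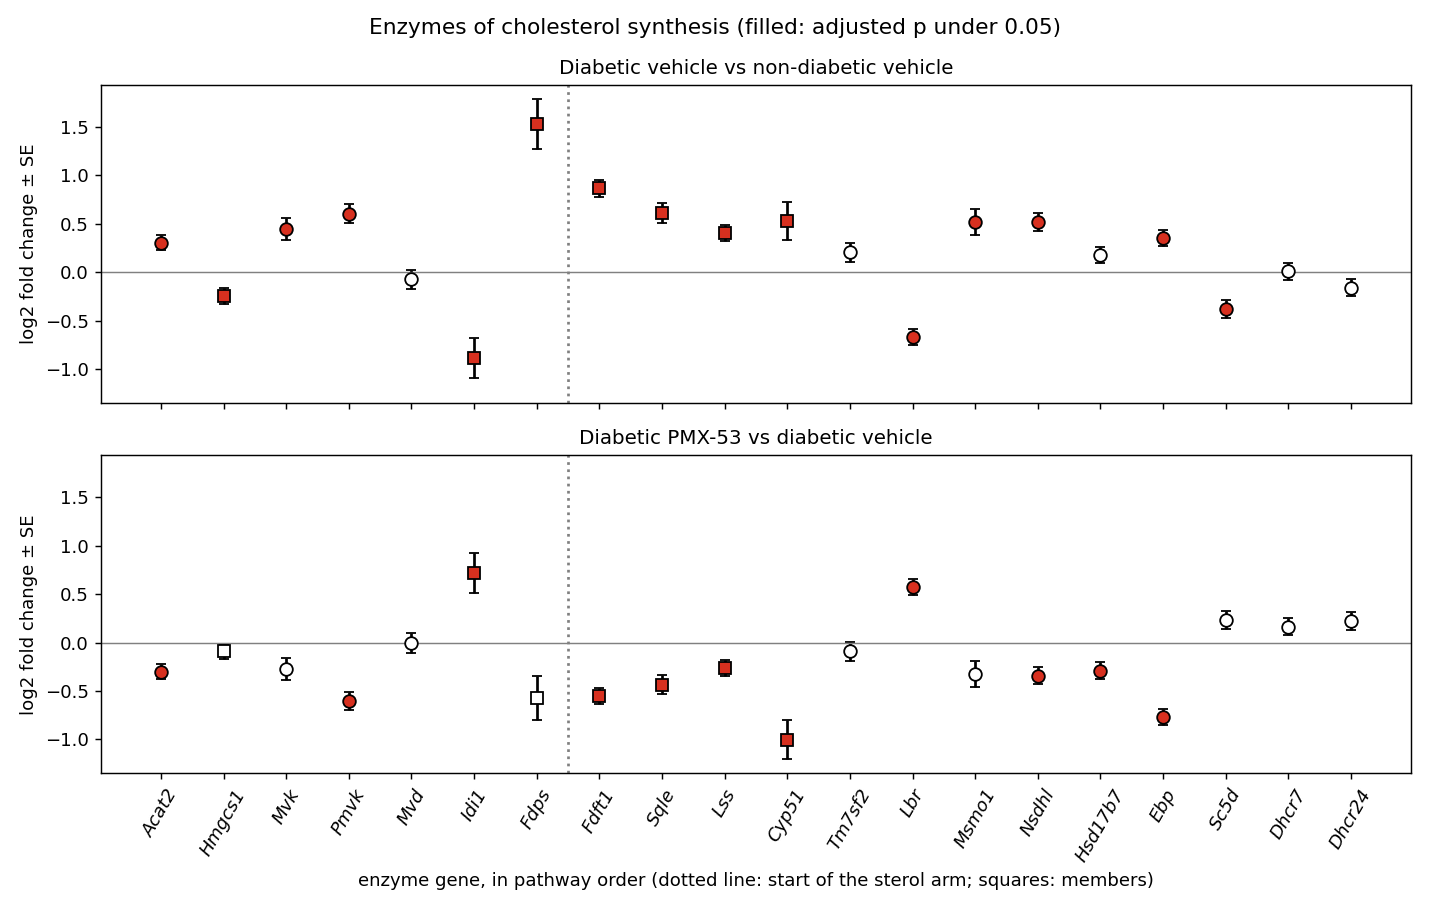
Log2 fold change ± SE (vertical axis) of the enzyme genes in pathway order, for diabetic vehicle against non-diabetic vehicle mice (top) and diabetic PMX-53 against diabetic vehicle mice (bottom); squares are genes of the 8, filled symbols have an adjusted p under 0.05 and the dotted line marks the start of the sterol arm. Fdft1, Sqle, Lss and Cyp51 lie above 0 in the top panel and below 0 in the bottom one, where both panels share the diabetic vehicle libraries.

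Among sterol sensing and uptake genes, Insig1 and Mylip were higher with diabetes on vehicle and lower with PMX-53 in diabetic mice, in comparisons that share the diabetic vehicle libraries. Of 10 genes of SREBP processing and sterol sensing, 2 were higher and 3 lower with diabetes on vehicle (median 0.03), 1 higher and 2 lower with PMX-53 in diabetic mice, and 1 higher and 2 lower with diabetes on PMX-53. The first 4 of these counts are near the shares over all genes, and with library totals alone 3 were higher and 1 lower with PMX-53 in diabetic mice. For diabetes on PMX-53 the shares were 5.52% higher and 4.52% lower. The count of 2 lower there held in 8 of 20 alternatives, which gave 0 to 2. With diabetes on vehicle the count of 2 higher held in 12 of 20 alternatives, which gave 1 to 2. Insig1, which encodes an endoplasmic reticulum protein that retains the SREBP complex when sterols are high and is itself a known SREBP target, was at 29.1 to 40.4 CPM in diabetic PMX-53 and 42.5 to 64.8 CPM in diabetic vehicle libraries. In non-diabetic libraries Insig1 was at 19.5 to 24.6 CPM on PMX-53 and 21.6 to 35.9 CPM on vehicle. Between diabetic and non-diabetic vehicle mice Insig1 differed by 0.96 ± 0.11 (log2, edgeR adjusted p = 4.95e-07). PMX-53 in diabetic mice gave -0.64 ± 0.11 (adjusted p = 0.000194), and diabetes among PMX-53 mice gave 0.65 ± 0.12 (adjusted p = 0.00075). Srebf1, the gene of the related factor SREBP1, did not pass with diabetes on vehicle (0.15 ± 0.14, adjusted p = 0.439).

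Of 12 uptake and transport genes 6 were higher and 2 lower with diabetes on vehicle (median 0.19), but 1 was higher and 3 lower with library totals alone. Mylip, the gene of the ubiquitin ligase IDOL, was at 50.7 to 91.4 CPM in diabetic vehicle and 28.5 to 50.7 CPM in non-diabetic vehicle libraries (0.93 ± 0.19, edgeR adjusted p = 0.000482). Lrp2, the gene of the proximal tubule endocytic receptor megalin and also on the proximal tubule list, was at 4078 to 4938 CPM in diabetic vehicle and 6203 to 6669 CPM in non-diabetic vehicle libraries (-0.51 ± 0.06, adjusted p = 5.07e-07). Set against vehicle, in diabetic mice on PMX-53 1 of the 12 was higher and 5 lower (median -0.09), or 3 lower with library totals alone. Mylip was at -1.14 ± 0.19 and Stard4, a sterol transfer protein gene, at -0.43 ± 0.07 (edgeR adjusted p = 0.000154 and 9.04e-05). Lrp2 was higher at 0.29 ± 0.06 (adjusted p = 0.00147). Among mice on PMX-53, 0 of the 12 were higher and 2 lower with diabetes, both calls lost in at least 1 alternative.

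Efflux, oxidation and the side branches were mixed. Of 5 efflux genes tested out of 8 listed, 2 were higher and 1 lower with diabetes on vehicle, among them Apoe, the apolipoprotein E gene, at 1.52 ± 0.22 (edgeR adjusted p = 1.23e-05) and Abca1, the cholesterol exporter gene, at 0.99 ± 0.24 (adjusted p = 0.00228). In diabetic mice on PMX-53, against vehicle, 0 were higher and 2 lower, Apoe at -1.40 ± 0.22 (adjusted p = 7.87e-05) and Abca1 at -0.78 (adjusted p = 0.0188), the second lost with only these groups in the fit (adjusted p = 0.102). Abca1 ranged from 72.0 to 296.6 CPM in diabetic vehicle libraries (median 111), against 57.0 to 78.7 CPM in non-diabetic vehicle libraries. Without diabetic vehicle replicate 1 it was at 0.60 with diabetes on vehicle and at -0.39 with PMX-53 in diabetic mice. Of 8 esterification and oxidation genes tested out of 11, 3 were higher and 1 lower with diabetes on vehicle (median -0.14), with the oxysterol hydroxylase gene Cyp39a1 at 0.90 ± 0.11 (adjusted p = 5.76e-07) and the sterol 27-hydroxylase gene Cyp27a1 at 0.70 ± 0.13 (adjusted p = 0.000117). Set against vehicle, in diabetic mice on PMX-53 0 were higher and 2 lower (median -0.25), with Cyp39a1 at -0.57 (adjusted p = 0.000387). That count of 2 lower held in 12 of 20 alternatives, which gave 1 to 2. Of 12 genes of the isoprenoid branches 2 were higher and 4 lower with diabetes on vehicle (0 higher with library totals alone), with Pdss1, a ubiquinone side-chain synthase gene, at -0.70 ± 0.10, Rabggta, a prenyl transferase subunit gene, at -0.71 ± 0.11 and Dhdds, a dolichol synthase subunit gene, at -0.47 ± 0.08 (edgeR adjusted p = 2.15e-06, 1.88e-05 and 4.77e-05). In diabetic mice on PMX-53, against vehicle, 2 of the 12 were higher and 3 lower, or 0 lower with library totals alone. Of 14 fatty acid synthesis genes 4 were higher and 6 lower with diabetes on vehicle (median -0.21), with Acacb at 0.93 ± 0.10 and the malic enzyme gene Me1 at -1.17 ± 0.13 (adjusted p = 1.52e-07 and 2.87e-07), and 2 were higher and 3 lower with PMX-53 in diabetic mice (median -0.11), or 4 higher and 1 lower with library totals alone. Among mice on PMX-53, diabetes went with 0 higher and 0 lower of the first-arm and efflux lists. It went with 2 and 0 of esterification and oxidation, 0 and 1 of the isoprenoid branches and 1 and 2 of fatty acid synthesis. The shares over all genes tested were 5.52% higher and 4.52% lower. The 2 of esterification and oxidation held in 10 of 20 alternatives, and the 1 of the isoprenoid branches in 14 of 20. With PMX-53 in non-diabetic mice 0 genes of any of these 8 lists passed in edgeR, in either direction.

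Within groups the 8 genes followed each other weakly. On log2 CPM centred on the group mean, Spearman's rho over the 24 libraries had a median of 0.07 for the 28 pairs, from -0.38 for Fdps and Cyp51 to 0.56 for Lss and Srebf2, and 17 pairs were positive. The closest other gene of the 8 was Srebf2 for Fdft1 (0.39), Fdft1 for Idi1 (0.35), Cyp51 for Sqle (0.33), Idi1 for Hmgcs1 (0.32) and Fdft1 for Fdps (0.12). These pairs share libraries and their depth, and Fdps rests on few reads, where a weak rho is no finding. Among 11183 other genes averaging 2 or more on the log2 CPM scale, the 6 with the highest rho to the mean standardized pattern of the 8 were Ppp4r2 (0.73), Rbsn (0.71), Zfp24 (0.70), Yeats2 (0.69), Rpl7l1 (0.69) and Mtbp (0.68). These rho values describe the libraries and were not tested.

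**Figure D4:**
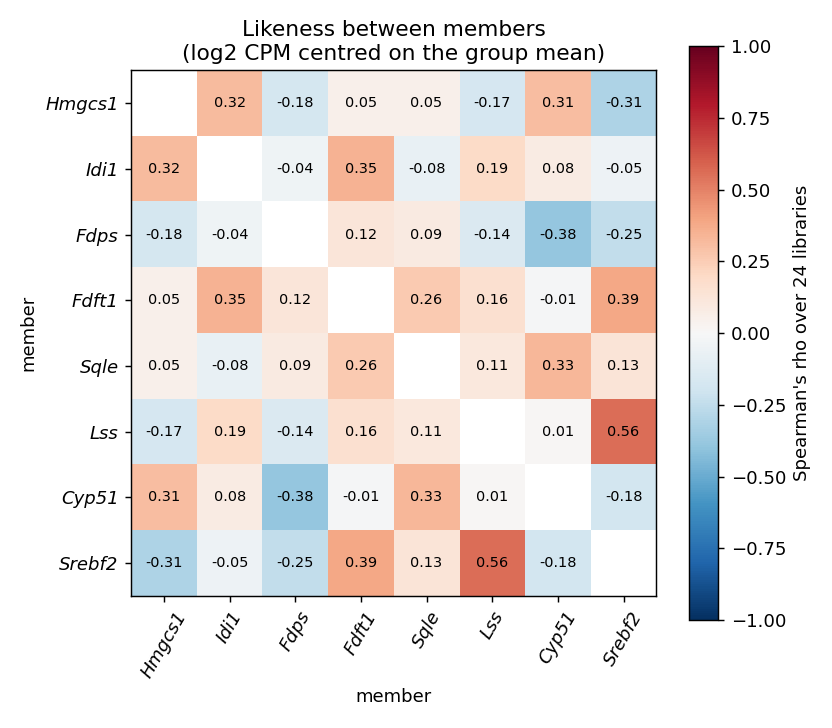
Spearman's rho between the 8 genes over the 24 libraries, on log2 CPM centred on the group mean; both axes list the genes and colour gives rho from -1 to 1. The pair Lss and Srebf2 is highest at 0.56 and the pair Fdps and Cyp51 lowest at -0.38.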

How the data were processed

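Renal cortex RNA went through ribosomal RNA depletion and a directional library kit, per the labels. The submitters' processing notes name bcl2fastq 2.20.0.422, STAR and the build GRCm38. Annotation, counter and strand use: not given in the sources used here. The deposited table holds the authors' whole-number read counts per gene, not normalized, in 24 libraries, and 0 columns were left out.

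In R 4.3.3, edgeR 4.0.16 was run on the counts after TMM scaling and filterByExpr over the 4 groups. A robust quasi-likelihood fit took all 24 libraries, with group as its single factor. SE is the size of the log2 fold change divided by the square root of F. Alternatives used limma 3.58.1, DESeq2 1.42.0, other scalings and filters, a replicate block and fits without each library, and the fits were checked on simulated counts. Promoter and exon features were read in Python 3.11.15 from RefSeq and GENCODE M21, whose exons gave lengths. Named list genes are up to 4 per list with the smallest p among those called; Srebf1, Idi2 and the overlap partners Ctsb and Gm43738 fall outside that rule. The members and lists were chosen with earlier results of these data known, so counts over them are descriptions. Some genes of these pathways are not reported here, and list counts leave them out.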

Additional observations from a re-analysis of the deposited data

Results flagged for a closer look

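In diabetic mice on vehicle, replicate 4 stood far from the 5 other libraries for Fdps, at 0.702 CPM against 1.55 to 1.89 CPM. This rests on 11 reads in that library. It was 1 of 32 gene and group sets checked by Dixon's test, which by chance flags about 1 in 20. The same library had the highest Idi1 and Cyp51 levels of its group.

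The response to PMX-53 differed between diabetic and non-diabetic mice (interaction, log2, edgeR adjusted p under 0.05) at -0.42 for Fdft1 and -0.90 for Cyp51. Of the pathway lists it was -0.73 for Pmvk, 0.42 for Lbr, -0.70 for Ebp, -0.91 for Mylip, 0.30 for Lrp2 and -1.41 for Apoe. It was 0.40 for Dhdds, -0.28 for Rabggtb, -0.63 for Elovl6 and 0.66 for Me1. The calls for Pmvk, Ebp, Lbr and Apoe held in 31 of 31 alternatives. Of the same 31, the calls held in 30 for Me1, 29 for Rabggtb, 28 for Fdft1, 25 for Dhdds, 19 for Lrp2, 15 for Mylip, 14 for Elovl6 and 9 for Cyp51. All these values use the diabetic vehicle libraries, the group that stood apart at Nnt.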

How the results depend on the processing

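Of 888 alternative values for the 8 genes 823 kept direction and call. Counts were held to a looser rule, being equal to the main count or within a set ratio of it. Of 333 for the 8 genes and the totals 300 met it. By that rule 5403 to 6796 genes called with diabetes on vehicle all met the main 6363. For the pathway lists, run after the data were seen, 1494 of 1650 values for named genes kept direction and call. Of their 1776 counts 1582 met the looser rule. With library totals alone, all-gene medians were -0.09 (diabetes on vehicle), 0.12 (PMX-53 in diabetes), 0.02 (diabetes on PMX-53) and 0.12 (interaction), and 31.2%, 79.5%, 65.7% and 79.3% of called genes were higher, against 50.7%, 50.7%, 54.9% and 49.5% with TMM. That scaling gave 2 of the 8 higher with PMX-53 in diabetes, Hmgcs1 there at 0.0294, Lss at 0.0035 with PMX-53 in non-diabetic mice, 871 genes called for diabetes on PMX-53, 0 of the 8 negative in the interaction and Sqle there at 0.0106. Without an expression filter 1 gene was called with PMX-53 in non-diabetic mice, where Lss was at 0.0038, and 1 of the 8 was negative in the interaction. DESeq2 called 1 of the 8 positive there (Idi1, adjusted p = 0.0473), as did limma voom (Idi1, adjusted p = 0.0488). Limma voom also called 1 of the 8 lower with diabetes on vehicle, 2626 genes with diabetes on PMX-53 and 2281 in the interaction, and gave Idi1 0.031 and Cyp51 0.0268 with PMX-53 in non-diabetic mice. With only the groups compared, 1 of the 8 was lower with diabetes on PMX-53 (Cyp51).

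Leaving out 1 library gave 1 to 2 of the 8 higher with PMX-53 in diabetes (2 without diabetic vehicle replicate 6), 0 to 1 positive and 0 to 2 negative in the interaction, and 1022 to 2242 genes called there, the highest without diabetic vehicle replicate 4. Signs turned for Srebf2 with diabetes on vehicle (-0.1051 to 0.0025) and, with PMX-53 in non-diabetic mice, for Idi1 (-0.1491 to 0.1104), Lss (-0.0407 to 0.0349) and Cyp51 (-0.2494 to 0.0636), none of which was called. The cause was not tested.

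Replicate numbers are shared between groups, but same-numbered libraries did not deviate together (correlations of -0.11 to 0.13), and at most 2 of 6 correlated best with their own number. With a replicate block 1 of the 8 was negative in the interaction (Cyp51 adjusted p = 0.056), and 6221, 4136, 0, 1483 and 1344 genes were called for diabetes on vehicle, PMX-53 in diabetes, PMX-53 without diabetes, diabetes on PMX-53 and the interaction, where 6363, 4317, 0, 1587 and 1489 were called without it. Depth limits Fdps most.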
